A study of Mus musculus with 6 samples.

Results

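The genes Acot1, Acot2, Acot3, Acot4, Acot5 and Acot6 form the type I acyl-CoA thioesterase cluster of mouse chromosome 12. Their transcript levels were examined in epididymal white adipose tissue (eWAT) of mice with cancer-associated cachexia (CAC) and of control mice (CONT). The members were chosen by name as the whole cluster, with the differences between these same 6 libraries already known. Their levels and fold changes are therefore given as descriptions, without a test. The deposited table listed 55039 genes, of which 6 are members.

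Acyl-CoA thioesterases cleave fatty acyl-CoA into a free fatty acid and coenzyme A, which sets how much of each is at hand in a compartment of the cell. The type I enzymes of the mouse lie side by side in the genome and differ mainly in where they act. Acot1 is cytosolic, Acot2 is mitochondrial, and Acot3, Acot4, Acot5 and Acot6 act in peroxisomes. In liver and heart, several of these genes are known to be induced by fasting through the nuclear receptor PPARα, which partners RXR on DNA.

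All mice were male C57BL/6 mice, 6 to 7 weeks old at the start. The CAC mice (n = 3) were injected under the skin with Lewis lung carcinoma (LLC) cells, a mouse lung tumor line, and the CONT mice (n = 3) with PBS. Tissue was taken 28 days later, and each library came from 1 mouse. No genetic change was made in either group, and the model rests on 1 tumor line.

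The libraries held 15713794 to 25926425 counted reads. In CONT 1, 30.2% of reads were mitochondrial, against 3.89% to 5.04% in the other 5, and its TMM-adjusted size was the smallest, with 11.2 reads to 1 CPM (reads scaled to a common library size) against 22.1 to 26.5. The summed level of 8 adipocyte markers, most of it Fabp4 and Car3, was 25680 to 50240 CPM in CONT and 22470 to 52980 CPM in CAC. Lep, the leptin gene and 1 of the 8, was at 409 to 698 CPM in CONT and at 512, 4 and 0.415 CPM in CAC, so it was low in CAC 2 and CAC 3, the libraries with the highest levels of Acot1, Acot3 and Acot5. Lipe and Fabp4 were also below the CONT range in CAC 2 and CAC 3, Plin1 only in CAC 2 and Car3 only in CAC 3. Adipoq, Cidec and Pck1 were within the CONT range or above it in both libraries. The part of these differences in the Acot levels was not tested. Libraries also differed in genes of neighbouring organs. The summed level of 6 testis markers was 11.2, 1093 and 16.4 CPM in CONT and 0, 4.84 and 1553 CPM in CAC, and that of 7 epididymis markers reached 10590 CPM in CONT 3 and at most 202 CPM in the others. All values of the Acot genes are given per library for this reason.

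The 6 genes run in the same direction on the plus strand (GRCm38), in the order Acot2, Acot1, Acot4, Acot3, Acot5 and Acot6. Acot2 starts at chr12:83987861-83993873, followed after 15.6 kb by Acot1 at chr12:84009490-84018371 and after another 20 kb by Acot4 at chr12:84038379-84048601. Acot3 begins 3.54 kb further on, at chr12:84052144-84060402, Acot5 lies at chr12:84069325-84076020, and Acot6 closes the row at chr12:84100654-84111349. Their coding sequences are alike in length, from 1257 bases in Acot1 and Acot6 to 1359 bases in Acot2, which carries a longer N-terminus.

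The genes are close copies of each other, so a read can match more than 1 of them. Across the coding sequences of the GENCODE M21 transcripts, Acot1 and Acot2 were identical at 95.6% of aligned bases, and the other 14 pairs at 78.6% to 87%. The longest run without a mismatch between Acot1 and Acot2 had 273 bases. It lies in exon 3 of both genes, at chr12:84017006-84017278 in Acot1 and at chr12:83992728-83993000 in Acot2. It is shown in lower case because a read placed inside it cannot tell the genes apart.
Acot1 and Acot2 shared run: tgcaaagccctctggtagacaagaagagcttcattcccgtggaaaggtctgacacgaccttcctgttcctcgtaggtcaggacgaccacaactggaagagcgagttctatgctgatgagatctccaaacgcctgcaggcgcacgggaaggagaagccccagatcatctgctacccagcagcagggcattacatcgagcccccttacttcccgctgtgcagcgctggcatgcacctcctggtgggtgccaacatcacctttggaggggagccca

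Read length sets how far this matters, and 100-base windows were used as a guide. Of such windows in the longest-coding transcript, 21.9% in Acot1, 17.1% in Acot2, 16.6% in Acot3, 8.85% in Acot4, 8.32% in Acot5 and 1.82% in Acot6 occurred exactly in a transcript of another gene, on either strand. For Acot2, every shared window was shared with Acot1. For Acot3 and Acot4, most were shared with transcripts that overlap them in the genome. The antisense gene 4732463B04Rik, on the minus strand at chr12:84039469-84053807, overlaps both. So does the read-through model Gm49366 on the plus strand, which was listed at 0 reads in all 6 libraries. How reads with several matches, or with overlapping genes, were counted is not given in the sources used here, and the strand setting of the counting is not given either. The counts of Acot1 and Acot2, and of Acot3, Acot4 and the antisense gene, are uncertain to that extent.

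The promoters of the peroxisomal genes that differed most between the groups are shown to allow comparison of their sequence around the start site. RefSeq (GRCm38.p6) gave a window of 250 bases before and 50 after the start for 5 of the 6 genes, all but Acot6. Capitals mark every AGGTCA half-site on either strand, which nuclear receptors such as PPARα with RXR bind in pairs, and the stretch closest to 2 such half-sites in a row with 1 base between. The windows are chr12:84051894-84052193 for Acot3, chr12:84038129-84038428 for Acot4 and chr12:84069074-84069373 for Acot5, all on the plus strand.
Acot3: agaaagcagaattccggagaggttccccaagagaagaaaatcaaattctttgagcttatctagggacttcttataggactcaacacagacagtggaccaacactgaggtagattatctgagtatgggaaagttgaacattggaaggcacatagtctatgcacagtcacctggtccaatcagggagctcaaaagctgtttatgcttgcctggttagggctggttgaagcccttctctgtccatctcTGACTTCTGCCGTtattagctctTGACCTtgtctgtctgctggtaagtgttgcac
Acot4: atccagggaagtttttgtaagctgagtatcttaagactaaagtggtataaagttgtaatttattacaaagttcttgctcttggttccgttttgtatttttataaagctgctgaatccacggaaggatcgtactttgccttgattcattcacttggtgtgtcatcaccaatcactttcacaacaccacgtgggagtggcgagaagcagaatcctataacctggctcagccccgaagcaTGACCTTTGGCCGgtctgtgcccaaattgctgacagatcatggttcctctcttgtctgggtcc
Acot5: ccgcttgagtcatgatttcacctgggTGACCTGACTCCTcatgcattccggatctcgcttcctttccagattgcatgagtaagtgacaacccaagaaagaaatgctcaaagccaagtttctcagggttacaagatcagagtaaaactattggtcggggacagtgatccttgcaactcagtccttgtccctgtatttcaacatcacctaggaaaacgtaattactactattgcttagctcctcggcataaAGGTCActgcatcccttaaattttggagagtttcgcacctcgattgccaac

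The longer form AAAGGTCA was found 13 bases before the start of Acot4, on the minus strand, and 3 bases before the start of Acot5, on the plus strand. Of 27025 mouse promoter windows of this length, 1.46% held it on either strand. The motifs were chosen after the Acot promoters had been read, so the shares given here are a description and cannot test enrichment. The plain half-site AGGTCA, which lies within the longer form, was found in Acot3, Acot4 and Acot5 and in 16% of all promoters. No copy of it was found in the windows of Acot1 and Acot2. The match to the paired half-sites was closest in Acot4, with 2 mismatches over 12 positions, a match that 3.81% of promoters equalled or bettered. Acot2, Acot3 and Acot5 had 3 mismatches, as few as in 24.4% of promoters, and Acot1 had 4. CCAAT was present in all 5 windows, at 77 to 113 bases before the start in Acot1, Acot3, Acot4 and Acot5 and at 244 bases in Acot2, and in 37.9% of all promoters. These are matches of letters and not measured binding sites.

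Acot3, Acot4 and Acot2 were higher in all 3 CAC libraries than in any CONT library, while Acot1, Acot5 and Acot6 overlapped between the groups. Over all 17296 genes that passed the filter on low counts, 11.8% were higher in CAC without overlap, and for the Acot genes this count is part of what they were chosen on. All 6 members passed the filter, Acot3 and Acot5 only through the reads of the CAC group. In the fit across all genes (edgeR's quasi-likelihood test), 0% had an adjusted p under 0.05, and 2294 had an unadjusted p under 0.05 (1384 without CAC 2 and 1491 without CAC 3). DESeq2, on the same counts, gave 965 genes with an adjusted p under 0.05. The study, which used DESeq2 on these libraries, listed Acot3, Acot4 and Acot5 among its differentially expressed genes, all higher in CAC. The median log2 fold change over all genes tested was -0.055. In bulk tissue, fewer cells of a type and less RNA per cell cannot be told apart.

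Acot1, the cytosolic enzyme for long-chain acyl-CoA, had 34, 264 and 289 reads in CONT 1, 2 and 3, or 3.03, 11.6 and 13.1 CPM. In CAC 1, 2 and 3 it had 82, 1473 and 2038 reads, or 3.37, 59.4 and 77.0 CPM. CAC 2 and CAC 3 were far above all CONT libraries, whereas CAC 1 was at the level of CONT 1, so the groups overlapped. The mean went from 9.22 ± 5.41 CPM (SD, n = 3) to 46.6 ± 38.4 CPM (SD, n = 3), with a log2 fold change of 2.33 (SE 1.06). Within CAC the highest library was 22.9 times the lowest, and without CAC 1 the log2 fold change was 2.94.

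Acot2, the mitochondrial enzyme, was the steadiest of the 6. It had 326, 484 and 578 reads in CONT, or 29.1, 21.2 and 26.1 CPM, and 967, 747 and 832 reads in CAC, or 39.7, 30.1 and 31.4 CPM. The CAC libraries lay above the CONT libraries, but the lowest CAC library was only 1.04 times the highest CONT library. The mean was 25.5 ± 3.98 CPM in CONT and 33.8 ± 5.19 CPM in CAC (SD, n = 3 each), a log2 fold change of 0.41 (SE 0.207). CAC 1, the lowest CAC library for the other 5 members, was the highest for Acot2.

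Acot3, a peroxisomal enzyme for medium- to long-chain acyl-CoA, was nearly absent from CONT, with 1, 4 and 26 reads, or 0.0892, 0.175 and 1.18 CPM. In CAC it had 104, 528 and 919 reads, or 4.27, 21.3 and 34.7 CPM. The lowest CAC library was 3.63 times the highest CONT library. The mean was 0.48 ± 0.604 CPM in CONT and 20.1 ± 15.3 CPM in CAC (SD, n = 3 each), and the log2 fold change was 5.31 (SE 1.19). The size of this value depends on CONT 3, which held most of the CONT reads, and on CAC 3: the log2 fold change was 7.12 without the former and 4.67 without the latter.

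Acot4, the peroxisomal enzyme for succinyl-CoA and other dicarboxylyl-CoA esters, had 98, 489 and 645 reads in CONT, or 8.74, 21.4 and 29.2 CPM. It had 1569, 1791 and 2464 reads in CAC, or 64.4, 72.3 and 93.0 CPM. All CAC libraries were high, including CAC 1, and the lowest was 2.21 times the highest CONT library. The mean was 19.8 ± 10.3 CPM in CONT and 76.6 ± 14.8 CPM in CAC (SD, n = 3 each), with a log2 fold change of 1.95 (SE 0.436). Acot4 had the most even CAC libraries of the 4 genes with a log2 fold change above 1, the highest being 1.44 times the lowest.

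Acot5, a peroxisomal enzyme for medium-chain acyl-CoA, had 0, 54 and 15 reads in CONT, or 0, 2.37 and 0.678 CPM. The count of 0 in CONT 1 allows up to 3 reads, or 0.268 CPM, for counting error alone. It had 51, 182 and 1259 reads in CAC, or 2.09, 7.35 and 47.5 CPM. CAC 1 was below CONT 2, and CAC 3 alone held 83.4% of the summed CAC level. The means were 1.01 ± 1.22 and 19 ± 24.9 CPM (SD, n = 3 each), and the log2 fold change was 4.17 (SE 1.58). Without CAC 3 it was 2.18 (SE 1.39), without CONT 2 it was 5.63, and without CAC 1 it was 4.79.

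Acot6, a peroxisomal enzyme linked to branched-chain acyl-CoA, had 63, 241 and 183 reads in CONT, or 5.62, 10.6 and 8.27 CPM. It had 220, 310 and 404 reads in CAC, or 9.03, 12.5 and 15.3 CPM. CAC 2 and CAC 3 were above all CONT libraries, while CAC 1 was within their range. The means were 8.15 ± 2.47 and 12.3 ± 3.12 CPM (SD, n = 3 each), a log2 fold change of 0.59 (SE 0.348).

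**Figure D1:**
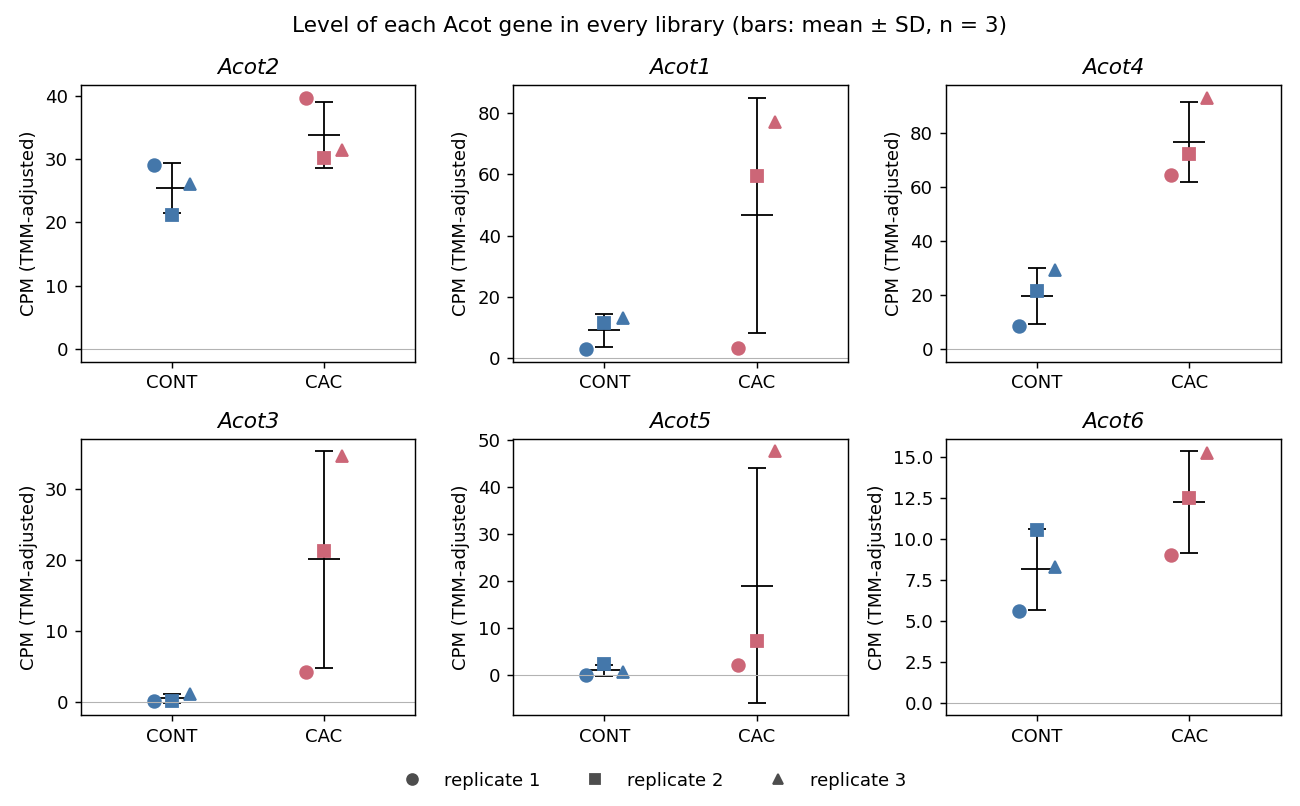
TMM-adjusted CPM of each Acot gene (vertical axis, linear, scale set per gene) in the CONT and CAC libraries, with symbols for the replicate number and bars for the mean ± SD (n = 3). Acot2, Acot3 and Acot4 show no overlap between groups, and the Acot5 mean of CAC rests mainly on CAC 3.

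The spread between mice also differed among the members. The biological coefficient of variation estimated by edgeR was 26.4% for Acot2, 39% for Acot4 and 42.4% for Acot6, against a median of 41.1% over all genes tested. It was 82.8% for Acot1, 86.2% for Acot3 and 119% for Acot5. The spread of these 3 genes was thus above the median, and that of Acot4 was near it.

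**Figure D2:**
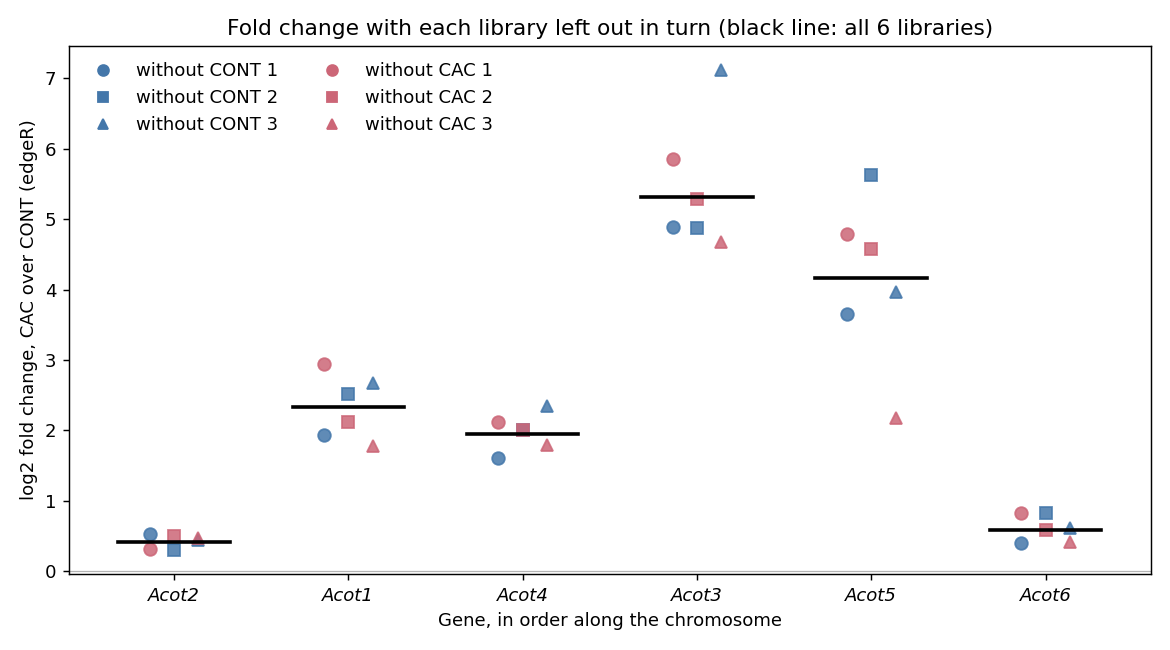
Log2 fold change of each Acot gene, CAC over CONT, with all 6 libraries (black lines) and with 1 library left out at a time (blue for CONT, red for CAC, symbols for the replicate number). All values lie above 0; Acot5 ranges from 2.18 to 5.63 and Acot2 from 0.29 to 0.53.

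Levels of different genes were compared in FPKM, the authors' values per length. Acot2 had the highest FPKM of the cluster in all CONT libraries, with 10.7, 7.70 and 9.55, and Acot4 was next with 1.06, 2.56 and 3.51. These were the only neighbours in the order of CONT means whose ranges did not overlap. In CAC no neighbours in the order were separated. Acot2 stood first in CAC 1 with 14.9 FPKM, Acot1 in CAC 2 with 12.3 FPKM and Acot5 in CAC 3 with 25.5 FPKM.

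The cluster as a whole had a summed FPKM of 13.2, 15.2 and 17.4 in CONT and 26.9, 42.8 and 74.7 in CAC. The CONT libraries were close together and the CAC libraries were spread, all above CONT. The mean was 15.3 ± 2.12 in CONT and 48.1 ± 24.3 in CAC (SD, n = 3 each), or 3.15-fold higher. In CPM, which is not per length, the ratio was 3.25-fold.

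The make-up of the sum moved with the level. Acot2 supplied 81.6%, 50.6% and 54.9% of the summed FPKM in CONT and 55.4%, 26% and 15.6% in CAC, with CAC 1 inside the CONT range. Acot3 supplied 0.16%, 0.267% and 1.58% in CONT and 3.81%, 11.8% and 11% in CAC, without overlap. The share of Acot6 was lower in every CAC library, at 4.32%, 3.7% and 2.6% against 5.4%, 8.63% and 5.95%, although its own level was not. Acot5 reached 34.1% in CAC 3 and at most 9.17% elsewhere. The shares sum to the whole, so a higher share of 1 gene lowers those of the others.

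**Figure D3:**
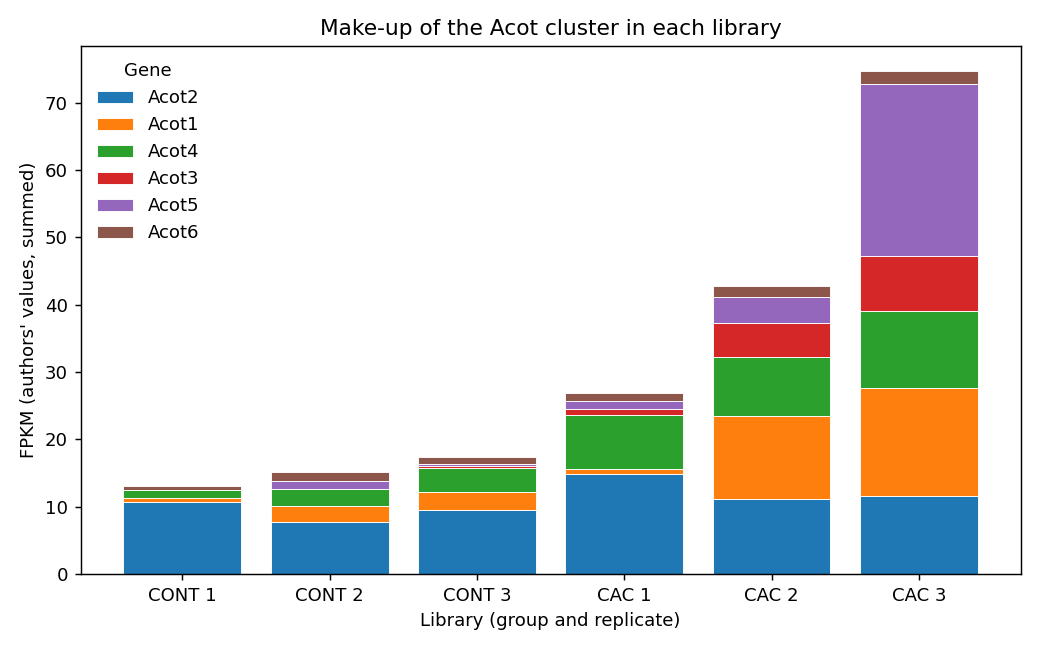
FPKM of the 6 Acot genes (authors' values, stacked) in each library, by group and replicate. The blue part, Acot2, is similar in height across libraries at 7.70 to 14.9 FPKM, and the total goes from 13.2 in CONT 1 to 74.7 in CAC 3.

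Across the 6 libraries, the log2 levels of Acot3 and Acot4 had a Pearson correlation of 0.9 and those of Acot5 and Acot6 of 0.929. Acot2 had correlations between -0.111 and 0.507 with the others. These values describe 6 libraries that share the group difference. The genes outside the cluster whose log2 CPM followed the summed Acot level most closely were Sidt2 (r = 0.998), Cul1 (r = 0.998), Etfdh (r = 0.998), Pex5 (r = 0.997) and Ranbp10 (r = 0.997). Pex5 is the receptor that brings enzymes into peroxisomes, and Etfdh passes electrons from fatty acid oxidation to the respiratory chain. In all, 299 of 17290 genes had an r above 0.95.

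Tissue markers also moved along the CAC libraries. The summed level of 10 brown and beige adipocyte markers was 42.9, 52.8 and 32.9 CPM in CONT and 27.4, 102.4 and 155 CPM in CAC, the order that 5 of the 6 Acot genes, all but Acot2, also had within CAC. Cidea, Cox8b and Elovl3 held 90.1% of the sum in CAC 3, and Cox7a1 went the other way, from 2.03 to 5.98 CPM in CONT to 0.888 to 1.44 CPM in CAC, without overlap. Only Kng2 was higher without overlap, at 0.0892 to 0.904 CPM in CONT and 1.11 to 2 CPM in CAC. The defining gene of the list, Ucp1, had at most 6 reads in any library. The 8 hepatocyte markers summed to 15.7 to 34.95 CPM in CONT and to 12.03, 4.36 and 96.2 CPM in CAC, so CAC 3 was high for them and for testis markers as well as for Acot5. CAC 2 had the lowest hepatocyte sum of all libraries and a testis sum of 4.84 CPM. Acot1 was at 59.4 CPM and Acot3 at 21.3 CPM in this library. No marker of either list was at 0 in all libraries. The summed level of 5 fibroblast and progenitor markers, most of it Col1a1 and Dpt in CONT, was 149.4 to 479 CPM in CAC against 650 to 799.4 CPM in CONT. Of these, 3 were lower without overlap (Col1a1, Dpt and Pi16), against 10.7% of all genes tested. Pdgfra, at 57.6 to 93.9 CPM in CAC and 20.7 to 149 CPM in CONT, and Dpp4 overlapped. The 5 markers of B and plasma cells summed to 6.72 to 17.1 CPM in CAC against 27.5 to 87.9 CPM in CONT. Of them, 4 were lower without overlap, against the same 10.7% of all genes. The part of these differences in the Acot levels was not tested.

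The difference was compared with the genes around the cluster, within 500 kb on each side. Of 22 tested genes outside the cluster, 4 were higher and 1 lower at an unadjusted p under 0.05, against 6.31% higher and 6.95% lower over all genes, and the median log2 fold change was 0.18. The gene nearest after Acot6, at 3.02 kb, was Dnal1, an axonemal dynein light chain gene, with 106, 454 and 413 reads in CONT and 266, 273 and 179 in CAC and a log2 fold change of -0.74 (SE 0.373). It was followed by Pnma1 (-0.08) and Elmsan1 (0.65). Before Acot2, the nearest tested genes were Riox1 at 34.9 kb (0.46), Numb at 65.9 kb (0.47) and Papln at 195 kb (-0.53). The genes past an unadjusted p of 0.05, named after their values were seen, were Elmsan1, Coq6, Entpd5 and Aldh6a1 after the cluster and Dcaf4 before it, all with an adjusted p above 0.2.

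Inside the cluster, the antisense gene 4732463B04Rik had 1, 52 and 55 reads in CONT and 142, 193 and 89 in CAC. All CAC libraries were above the CONT libraries, with a log2 fold change of 1.78 (SE 0.955, edgeR unadjusted p = 0.107, adjusted p = 0.456). Its order within CAC was not that of Acot3 or Acot4, which were both highest in CAC 3.

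**Figure D4:**
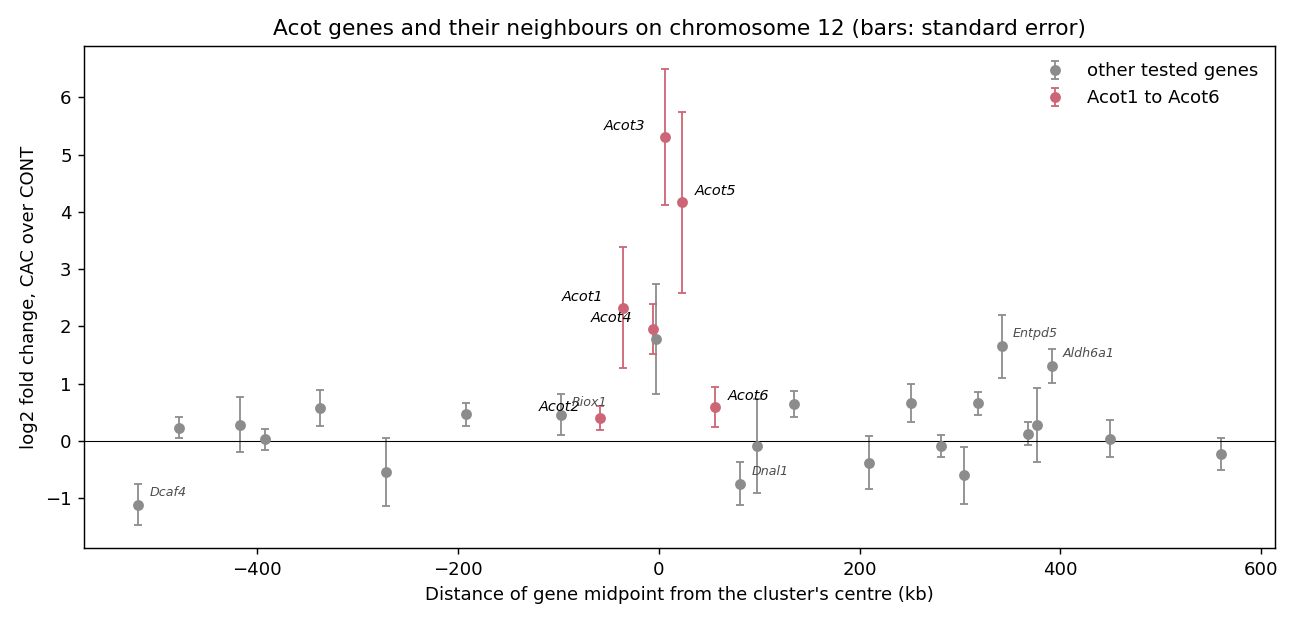
Log2 fold change, CAC over CONT, with its standard error for the Acot genes (red) and the other tested genes (grey) against the distance of each gene's midpoint from the centre of the cluster in kb. Acot1, Acot3, Acot4 and Acot5 stand above 1.9, and the grey point beside Acot4 is the antisense gene at 1.78.

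The other thioesterases belong to the structurally unrelated type II family. Of 10 listed genes 7 were tested, and the median log2 fold change was -0.16. None of the 7 had an unadjusted p under 0.05, against 6.31% higher and 6.95% lower over all genes, and 0 were free of overlap, against 11.8% higher and 10.7% lower. With 7 genes, these counts do not set the family apart from the rest. Acot13, a mitochondria-associated enzyme, had 21.5 to 35.8 FPKM in CONT and 28.5 to 36.8 FPKM in CAC, above every type I member in each of the 6 libraries. Acot8, the peroxisomal type II enzyme, had 4.29 to 5.04 FPKM in CONT and 4.76 to 6.01 FPKM in CAC. Them4 and Them6 had log2 fold changes of -0.31 (SE 0.317) and -0.25 (SE 0.344). The acyltransferases Baat, Acnat1 and Acnat2, relatives of the type I enzymes, had too few reads to be tested.

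Lists of genes that make, move or burn acyl-CoA were counted in the same fit. They were written with earlier results of these data known, and 0 of their genes had an adjusted p under 0.05. Of 96 genes tested in all, 30 had an unadjusted p under 0.05, and 15 without CONT 2, the library with high testis markers among the controls. Over all genes, 6.31% were higher and 6.95% lower at this level. Among known targets of PPARα, 11 of 17 were higher at an unadjusted p under 0.05 and 0 lower, with a median log2 fold change of 0.78. Pdk4, the kinase that holds back pyruvate oxidation, went from 21.4 ± 2.87 to 147 ± 49.4 CPM (log2 fold change 2.78, SE 0.3, edgeR adjusted p = 0.127). Etfdh had a log2 fold change of 1.20 (edgeR adjusted p = 0.242). Pdk4 was highest in CAC 2, not in CAC 3.

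Of the regulators around PPARα, 2 of 14 were higher and 0 lower at an unadjusted p under 0.05, against 6.31% and 6.95% over all genes. With 14 genes, this count does not set the list apart. The 2 genes were Klf15, a fasting- and glucocorticoid-responsive factor (log2 fold change 1.21, SE 0.178, edgeR adjusted p = 0.177), and the corepressor Ncor1 (0.62). Ppara itself was at 1.43, 9.77 and 8.95 CPM in CONT and 8.62, 38.4 and 28.8 CPM in CAC. As for Acot1, CAC 2 and CAC 3 were high and CAC 1 was in the CONT range. Its log2 fold change was 1.90 (SE 0.805, edgeR unadjusted p = 0.0524).

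For the synthesis and mitochondrial import of acyl-CoA, 6 of 18 genes were higher and 1 lower at an unadjusted p under 0.05, against 6.31% and 6.95% over all genes, and 13 had a log2 fold change above 0. The median was 0.52. Slc27a1, which takes up and activates fatty acids, had 270.6, 470.6 and 777.4 CPM in CONT and 2081, 3017 and 3443 CPM in CAC (log2 fold change 2.49, SE 0.478, edgeR adjusted p = 0.215). Acsm3 and Acss3, which activate medium- and short-chain acids, had log2 fold changes of 3.77 (SE 0.734) and 1.98 (SE 0.441), with edgeR adjusted p of 0.221 and 0.228.

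For peroxisomal β-oxidation and acyl-CoA exit, the compartment of Acot3 to Acot6, 4 of 22 genes were higher and 2 lower at an unadjusted p under 0.05. Over all genes, 6.31% were higher and 6.95% lower at this level. Of the 22 genes, 13 had a log2 fold change above 0, with a median of 0.12. Nudt12, a peroxisomal Nudix hydrolase of NADH, had a log2 fold change of 0.93 (SE 0.18). Of the Nudix hydrolases that split coenzyme A in peroxisomes, Nudt19 was at -0.62 (SE 0.176) and Nudt7, which did not pass, at 0.19 (SE 0.2). Pmp22, at -1.26, encodes a peripheral myelin protein and was placed in this list in error. Without it, 4 of 21 genes were higher and 1 lower at this level, with a median of 0.19. The gene next in order of p was Ehhadh, the bifunctional enzyme of peroxisomal β-oxidation, which the study also picked from these libraries. It had 34.6, 44.6 and 66.2 CPM in CONT and 68.3, 266.9 and 690.3 CPM in CAC, with a log2 fold change of 2.82 (SE 0.803), the largest of the list. Without Pmp22, 29 of 95 genes of all lists had an unadjusted p under 0.05. In ω-oxidation, which makes dicarboxylic acids, 1 of 7 genes was higher at an unadjusted p under 0.05 (Adh5, 0.72) and 0 lower, while Cyp4a32 (2.10) and Aldh3a2 (-0.58) did not pass. Among genes of coenzyme A synthesis and breakdown, 2 of 12 were higher at an unadjusted p under 0.05, Vnn1 (1.57) and Slc25a16 (0.64). In that list 1 was lower, Enpp1 (-1.40), and the median was 0.12. With 7 and 12 genes, beside 6.31% higher and 6.95% lower over all genes, these counts do not set either list apart.

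**Figure D5:**
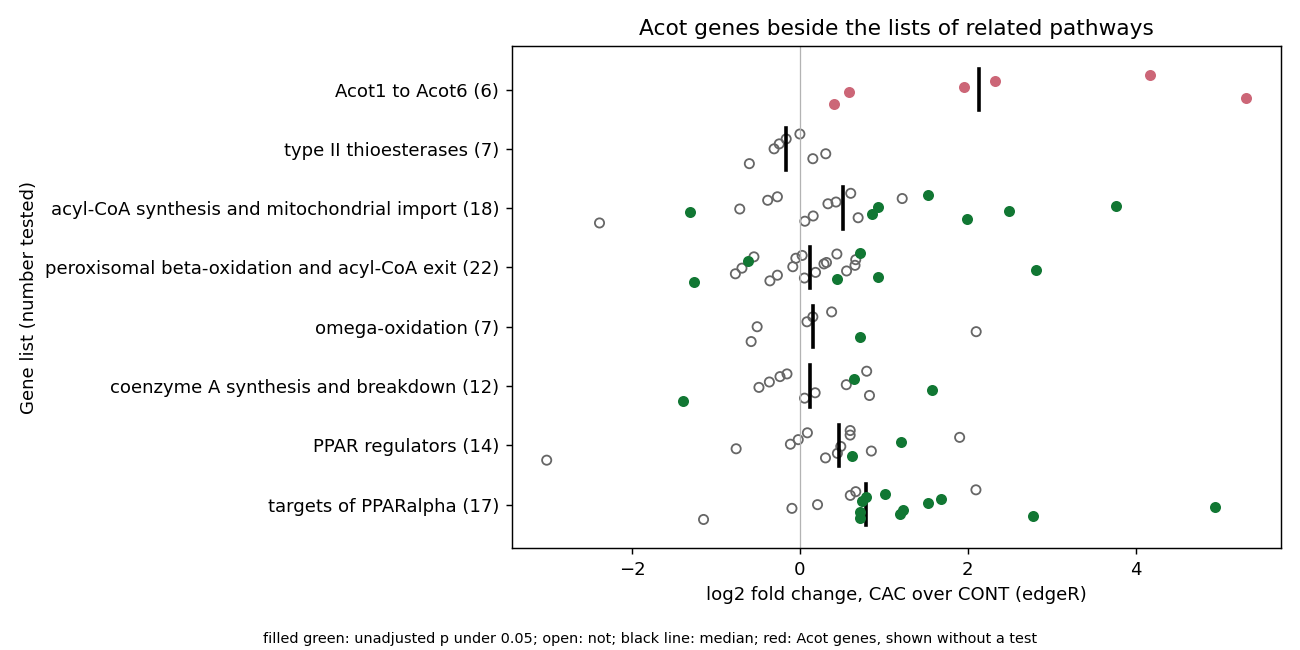
Log2 fold change, CAC over CONT, of the Acot genes (red) and of the tested genes of each related list, filled where the unadjusted p was under 0.05, with black lines for medians. The type II thioesterases centre near -0.16 and the PPARα targets near 0.78.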

How the data were processed

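RNA was measured by sequencing in eWAT of 3 CAC and 3 CONT mice, 1 library per mouse. Reads were cleaned in house by the authors. Per the labels, alignment used HISAT2 2.0.5 and counting per gene used featureCounts 1.5.0-p3, with Ensembl annotation of build GRCm38. The deposited counts are raw whole numbers. The deposited FPKM values were computed by the authors from the same counts, gene length and a total for each library. That total was not the number of counted reads. It was 1.21 to 1.25 times the TMM-adjusted size, so the FPKM values already carry a scaling between libraries.

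Counts were fitted in R 4.3.3 with edgeR 4.0.16 (robust quasi-likelihood test with TMM, genes filtered by group with filterByExpr, p-values adjusted by Benjamini-Hochberg over 17296 genes) with condition as the only term. Standard errors are the log2 fold change over the root of F. Alternatives were DESeq2 1.42.0, limma 3.58.1 on log2 FPKM, RLE and upper-quartile scaling, other filters, a replicate block and libraries left out. The fit was tested on simulated data. Sequences were aligned with Biopython 1.88, and motifs were chosen after the promoters had been read. The members and all lists were chosen with earlier results of these data known. Named genes are the 6 members, in each list the 3 genes with the smallest unadjusted p, the 3 nearest tested neighbours on each side and the 5 genes most like the summed level. Acot8, Nudt7, Ehhadh, the neighbours past an unadjusted p of 0.05 and the overlapping genes were added after their values were seen. A gene that this rule names is not reported here. The labels do not pair the mice by library number.

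A single read was worth less than 1 CPM in every library, and the CONT levels of Acot3 and Acot5 rest on the fewest reads.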

Additional observations from a re-analysis of the deposited data

How the results depend on the processing

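All 6 Acot genes kept a log2 fold change above 0 under every alternative run. Leaving out each library in turn gave 1.77 to 2.94 for Acot1, 0.295 to 0.525 for Acot2, 4.67 to 7.12 for Acot3, 1.61 to 2.35 for Acot4, 2.18 to 5.63 for Acot5 and 0.397 to 0.824 for Acot6, and 1.19 (without CAC 3) to 1.94 (without CAC 1) for the log2 ratio of summed FPKM (1.66 with all). It gave 1384 (without CAC 2) to 3032 (without CONT 1) genes with an unadjusted p under 0.05, with 1491 in the fit without CAC 3, and 0 genes with an adjusted p under 0.05. Genes free of overlap numbered 5079 to 7337, against 3883 with all 6, since fewer libraries overlap less often. The list genes with an unadjusted p under 0.05 numbered 15 (without CONT 2) to 36. In 2 pairs of libraries left out together, chosen after seeing the data, Acot5 was 3.64 and 1.7 and Acot2 was 0.338 and 0.629, without CONT 2 and CAC 3 and without CONT 1 and CAC 3 respectively. The first pair gave 857 genes and 10 list genes with an unadjusted p under 0.05, and the pairs gave 6523 and 9660 genes free of overlap.

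On log2(FPKM + 1) with limma, Acot1 was 1.42, Acot3 2.13 and Acot5 2.17, on a scale where the added 1 damps low values. With 0.1 added, Acot1 was 1.67 and Acot3 4.29. Genes with an adjusted p under 0.05 numbered 965 by DESeq2, and 5 and 6 by limma with 1 and 0.1 added. The labels give no pairing by replicate number. Correlations of same-numbered libraries around their group means were 0.306, -0.151 and -0.218, and the highest of any pair was 0.473, for CONT 2 with CAC 3. With so few libraries, these values cannot exclude a shared batch. With the replicate numbers as a block, 1 gene had an adjusted p under 0.05 and 1992 an unadjusted p under 0.05. Acot1 was then at 1.77 (SE 0.57) and Acot3 at 5.71 (SE 0.596), against SEs of 1.06 and 1.19 without the block. A filter of at least 10 reads in every library left out Acot3 and Acot5, which then had no value.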
